A study of Mus musculus with 24 samples.

Results

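The comparison tested gene by gene whether pressure load and running moved the transcripts of the mouse heart by different amounts after 8 weeks of each. The pressure load was TAC, transverse aortic constriction, a surgical narrowing of the aorta against which the left ventricle has to pump. The 8-week TAC effect is the log2 ratio of the TAC-HF hearts to the Sham-HF hearts, the running effect is the log2 ratio of the Running hearts to the Sedentary hearts, and the quantity tested is the first minus the second, called the difference of effects below. A positive difference means that a transcript stood higher after TAC, relative to its own controls, than after running, relative to its own. It uses 16 of the 24 libraries of the series, chosen by their labels, with 4 libraries in each of 4 groups.

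All hearts came from C57BL/6 mice. The Sedentary mice were neither operated on nor exercised as far as the labels say, the Running mice had wheel running for 8 weeks, the TAC-HF mice had TAC for 8 weeks, and the Sham-HF mice had a sham operation, with no time after surgery in the labels. The submitters' short name HF marks the 8-week TAC hearts and their shams. Sex, age, hour of collection and heart weight are not in the labels used here, nor is it stated that each library is a separate animal, so the p-values measure the spread between these libraries. No library serves in both effects, but each intervention has its own kind of control and its own cohort, so the intervention and the cohort cannot be told apart in the difference.

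The heart enlarges both under a chronically raised pressure and with endurance exercise. Growth under pressure is known for the return of genes of the fetal heart, for fibrosis, in which fibroblasts lay down collagen, and for a loss of fuel oxidation and of repolarizing ion channels. Exercise growth is known as a reversible enlargement without fibrosis or failure, driven in large part by growth factor and PI3-kinase signalling.

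The libraries held 16802939 to 39512101 estimated counts in all. Mitochondrially encoded transcripts took 52.7% to 57.6% of the counts in the TAC-HF libraries and 61.3% to 73.6% in the other 12, so this share moved with TAC and did not overlap between TAC-HF and any other group. Values below are CPM, the counts of a gene divided by the TMM-scaled total of its library and set to a common total. Scaling by library totals instead moved the median difference of all genes from -0.01 to 0.39 (log2), and what it did to the groups of genes is given with them or gathered further on. The labelled tissue matched its markers: the 12 ventricular cardiomyocyte markers summed to 18890 to 27943 CPM per library, while the 11 T and NK cell markers summed to at most 1.55 CPM and the 8 neutrophil markers to at most 4.82 CPM.

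The responses to TAC and to running differed for 1581 of 14252 genes tested, 11.1%, with 818 higher after TAC than after running (5.74%) and 763 lower (5.35%; edgeR's quasi-likelihood test, adjusted p under 0.05). Of these, 373 were higher (2.62%) and 280 lower (1.96%) by at least 2-fold. The TAC effect by itself was called for 3968 genes (27.8%), 1997 higher (14.0%) and 1971 lower (13.8%). The running effect was called for none: its smallest adjusted p was 0.368, and 779 genes (5.47%) had an unadjusted p under 0.05. With library totals the split of the difference was 3028 higher and 170 lower. The running effect was called for 14 genes with DESeq2, for 4 without Running replicate 4 and for 1 without Sedentary replicate 1.

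Most called differences went with a TAC effect: 1510 of the 1581 genes were also called for TAC, and the TAC effect was the larger in size in 1519. Over the 1581 genes the median size of the TAC effect was 0.78 and that of the running effect 0.12 (log2), against 0.27 and 0.11 over all genes tested. A further 2458 genes were called for TAC without a called difference. In these the median size of the TAC effect was 0.50, and the difference carried a larger error (median standard error over all genes 0.22) than the TAC effect (0.15). A running effect of like size was neither shown nor excluded for them. Across the 14252 genes the TAC and running effects had a Pearson r of 0.02 and a Spearman rho of 0.06, given as a description since genes are not independent replicates.

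**Figure D1:**
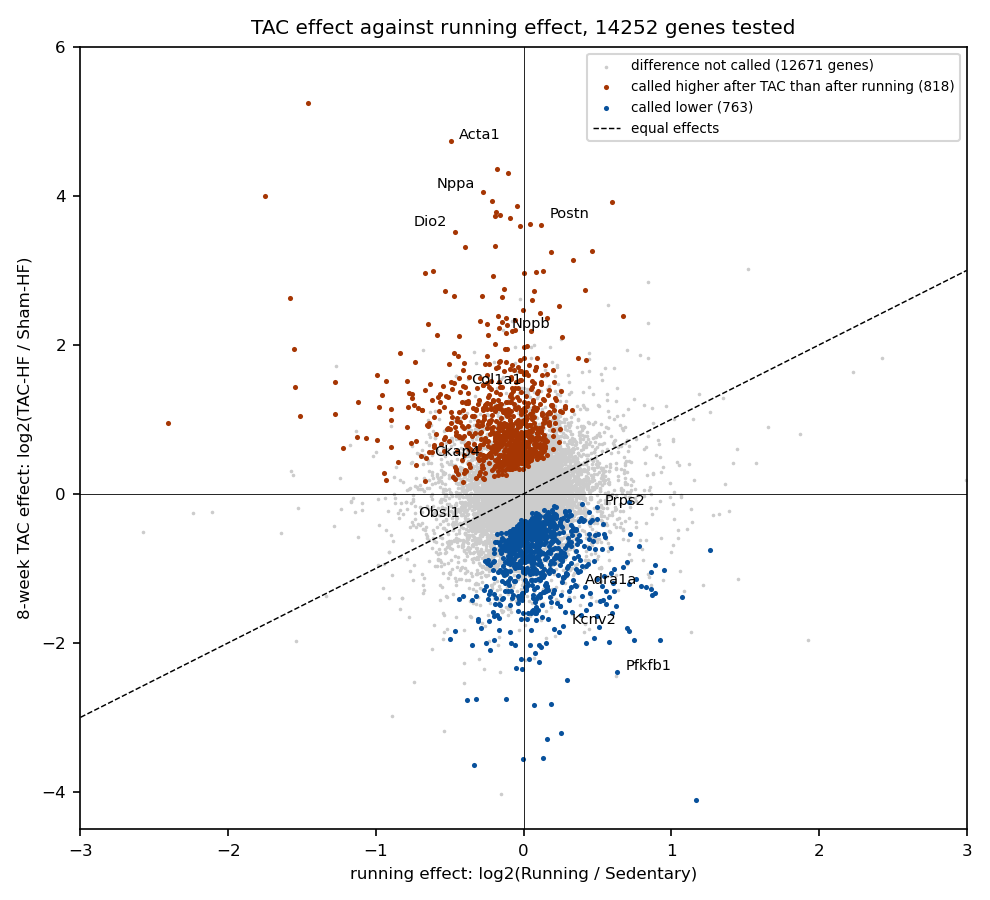
TAC effect (vertical, log2 of TAC-HF over Sham-HF) against running effect (horizontal, log2 of Running over Sedentary) for the 14252 genes tested, with called differences in colour and equal effects on the dashed line; 6 genes lie outside the axes. The 818 genes called higher and the 763 called lower spread along the vertical axis, above and below the dashed line.

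Genes of the fetal and stressed cardiomyocyte held the 3 largest differences among named genes. Of 17 tested genes of this kind, 9 were higher after TAC than after running and 0 lower, 52.9% called against 11.1% of all genes tested. Their median difference was 0.69 against -0.01 for all genes tested. Nppa encodes atrial natriuretic peptide, a hormone that adult ventricles make little of. It stood at 32.9, 45.7, 23.3 and 37.5 CPM in the Sedentary libraries, 27.0, 29.1, 25.6 and 33.6 in Running, 17.5, 18.0, 25.8 and 19.1 in Sham-HF and 352, 296, 293 and 397 in TAC-HF. The lowest TAC-HF library was above every other library by a wide margin, and the Running values lay within the range of the Sedentary ones. Its TAC effect was 4.06, its running effect -0.27 and its difference 4.33 (95% interval 3.80 to 4.86, edgeR adjusted p = 2.75e-08).

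Acta1, skeletal alpha-actin, is the actin of the fetal heart and of skeletal muscle. It read 41.9, 274, 93.7 and 125 CPM in Sedentary, 79.6, 69.2, 92.2 and 139.6 in Running, 63.8, 37.5, 40.4 and 32.4 in Sham-HF and 1125, 1009, 1162 and 1368 in TAC-HF libraries. The Sedentary hearts varied over a wide range, 3 of 4 above every sham, and no control or Running library came near the TAC-HF ones. At 5.23 (interval 3.80 to 6.67, edgeR adjusted p = 0.000385), this was the largest difference among named genes, but actin genes are close copies whose reads can be shared.

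Myh7 encodes the slow beta myosin heavy chain of the fetal mouse ventricle, and Myh6 the fast alpha chain of the adult. Myh7 stood at 66.9, 106, 81.3 and 61.4 CPM in Sedentary, 97.3, 72.5, 76.2 and 80.0 in Running, 43.4, 69.2, 64.0 and 79.2 in Sham-HF and 1375, 661, 647 and 458 in TAC-HF hearts, a difference of 3.57 ± 0.44 (SE, edgeR adjusted p = 0.000221). Myh6 stood at 10842, 11145, 11813 and 11339 CPM in Sedentary, 9766, 11155, 11489 and 10586 in Running, 10339.9, 12300.5, 11259 and 12345 in Sham-HF and 6366, 7574, 6092 and 6809 in TAC-HF hearts, a difference of -0.71 ± 0.13 (edgeR adjusted p = 0.00120). All 4 TAC-HF hearts were thus above the rest for Myh7 and below the rest for Myh6, while the Running and Sedentary values overlapped for both. The strand setting of the counting is not given in the sources used here, so reads of Myh7 and of its antisense transcript cannot be told apart, and the call of Myh6 was lost when library totals were used (log2 difference -0.30, edgeR adjusted p = 0.253).

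Of 18 adult sarcomere genes, Myh6 and the troponin T gene Tnnt2 (-0.47) were called lower and 0 higher, 11.1% as among all genes tested. The count was 4 with DESeq2 and 1 without Sedentary replicate 4, Running replicate 3, Sham-HF replicate 2 or 4, or TAC-HF replicate 4. With library totals 4 of the 18 were higher and 0 lower.

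Ankrd1, a stress-responsive repeat protein of the sarcomere and nucleus, had a running value in the same direction as its TAC effect. Its libraries read 151, 227, 136 and 189 CPM in Sedentary, 219, 218, 235 and 263 in Running, 239, 165, 157 and 166 in Sham-HF and 1271, 1012, 1201 and 1368 in TAC-HF. The running effect was 0.41 (unadjusted p = 0.0139, not called), the TAC effect 2.74, and the difference 2.32 (edgeR adjusted p = 2.79e-06). Gdf15, a secreted stress cytokine, was near the detection limit in 12 libraries (at most 0.573 CPM) and at 7.00, 4.09, 6.02 and 9.30 CPM in TAC-HF, with a difference of 4.42 ± 0.85. The muscle repeat protein gene Xirp2 (1.96), Uchl1 (1.36), the intermediate filament gene Des (0.66) and the Z-disc gene Csrp3 (0.59) completed the 9. Csrp3 was called in 6 of 16 fits that left out 1 library, those without Sedentary replicate 1 or 3, Running replicate 2, Sham-HF replicate 1, or TAC-HF replicate 2 or 4.

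Nppb, the gene of brain natriuretic peptide, did not pass. It read 25.8, 51.7, 47.7 and 51.4 CPM in Sedentary, 33.3, 40.6, 20.6 and 65.6 in Running, 169.7, 25.7, 68.8 and 29.2 in Sham-HF and 282, 261, 428 and 381 in TAC-HF hearts. The TAC-HF values were all above the rest, but Sham-HF replicate 1 stood well above the other 3 shams. The difference was 2.34 (interval 0.64 to 4.04, edgeR adjusted p = 0.0767), and without that library it was 3.17 (adjusted p = 0.00603). It was also called with DESeq2 (adjusted p = 0.0305), without the robust option of the fit (0.0246), with all 24 libraries (0.0291) and with library totals (2.77, adjusted p = 0.0303).

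The promoters of Nppa, Nppb, Acta1, Ankrd1 and Postn, a gene of activated fibroblasts described further on, are shown because all 5 read higher in every TAC-HF library than in every sham. Each line gives the 150 bases before the annotated start, from RefSeq on GRCm38.p6, 5′ to 3′ on the gene's own strand. Capitals mark 3 motifs searched on both strands. They are the TATA box core with the letters TATAAA, the MCAT core known as a site of TEAD factors, spelled CATTCC and read as GGAATG where it lies on the other strand, and the CArG box, the site of serum response factor. The CArG box was matched on both strands at the same bases, and no other matches overlapped. RefSeq holds 2 starts for Postn: the window of the downstream one is printed, and the other, chr3:54359117-54359266, held none of the 3 motifs. Of 32851 promoter windows of this length, TATAAA was in 7.57%, CATTCC in 7.59% and the CArG box in 0.916%.
Nppa (chr4:148000572-148000721, + strand): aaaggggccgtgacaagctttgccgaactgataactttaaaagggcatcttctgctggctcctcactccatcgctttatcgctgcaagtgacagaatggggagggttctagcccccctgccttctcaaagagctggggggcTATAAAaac
Nppb (chr4:147985750-147985899, + strand): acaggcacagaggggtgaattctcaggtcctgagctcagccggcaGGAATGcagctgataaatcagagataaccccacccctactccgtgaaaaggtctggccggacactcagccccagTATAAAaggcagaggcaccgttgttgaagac
Acta1 (chr8:123894776-123894925, - strand): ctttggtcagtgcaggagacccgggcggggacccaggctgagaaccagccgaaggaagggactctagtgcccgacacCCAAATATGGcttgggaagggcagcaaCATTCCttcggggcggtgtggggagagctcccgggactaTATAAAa
Ankrd1 (chr19:36119845-36119994, - strand): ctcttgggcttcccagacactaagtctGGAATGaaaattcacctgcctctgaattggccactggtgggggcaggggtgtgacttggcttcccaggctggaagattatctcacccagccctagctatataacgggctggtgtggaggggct
Postn (chr3:54360957-54361106, + strand): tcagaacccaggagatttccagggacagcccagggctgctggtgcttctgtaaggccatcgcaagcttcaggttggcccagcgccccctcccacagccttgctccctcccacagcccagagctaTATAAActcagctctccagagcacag
The Acta1 window held all 3 motifs, with the CArG box 73 to 64 bases before the start and CATTCC 46 to 41 bases before it. Nppb held CATTCC on the other strand and TATAAA, Ankrd1 CATTCC on the other strand, and Nppa and Postn TATAAA. These are matches of letters and not measured sites.

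**Figure D2:**
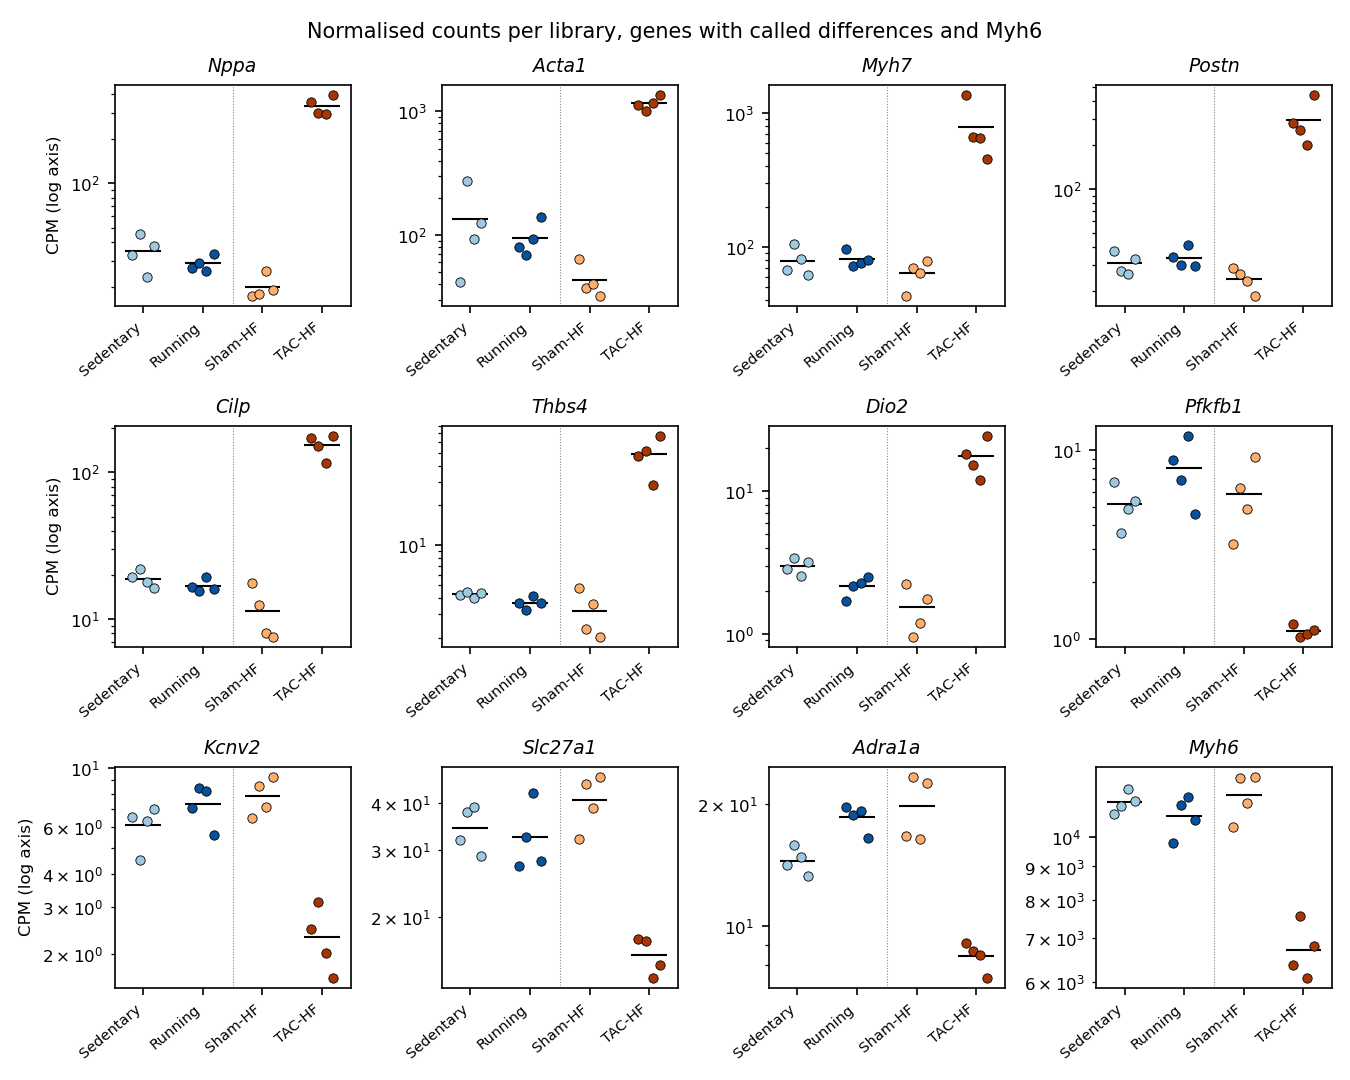
CPM per library (vertical, log axis) for 12 genes in the 4 groups; points are libraries, horizontal bars are means of 4, and a dotted line parts the exercise cohort from the TAC cohort. TAC-HF libraries stand apart from the other 3 groups in all 12 panels, above them for Nppa to Dio2 and below them for Pfkfb1 to Myh6.

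Potassium channel genes, which shape the repolarization of the heart, were lower after TAC than after running. Of 22 potassium and sodium channel genes, 0 were called higher and 11 lower, 50% called against 11.1% of all genes tested. Their median difference was -0.71. For none of the 22 did the running effect reach an unadjusted p under 0.05. Their summed level was 457 to 567 CPM in TAC-HF libraries and 618 to 911 in the other groups, with no overlap. Kcnv2 encodes a silent potassium channel subunit. It stood at 6.54, 4.53, 6.33 and 7.05 CPM in Sedentary, 7.07, 8.42, 8.19 and 5.61 in Running, 6.52, 8.56, 7.18 and 9.31 in Sham-HF and 2.49, 3.13, 2.02 and 1.63 in TAC-HF libraries, and its difference was -2.04 (interval -2.58 to -1.50, edgeR adjusted p = 3.91e-05). Every TAC-HF value lay below every other value.

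Kcnd2, a pore subunit of the transient outward current, read 10.9, 12.9, 15.2 and 11.5 CPM in Sedentary, 10.8, 16.7, 15.2 and 11.5 in Running, 14.7, 17.9, 17.6 and 17.5 in Sham-HF and 6.31, 8.52, 5.75 and 5.94 in TAC-HF hearts (difference -1.46 ± 0.21, edgeR adjusted p = 0.000150). Kcnh2, the pore of the rapid delayed rectifier, read 19.1, 20.3, 22.4 and 20.0 CPM in Sedentary, 16.6, 27.1, 24.0 and 17.6 in Running, 11.1, 16.1, 15.1 and 17.4 in Sham-HF and 6.22, 6.45, 4.52 and 5.97 in TAC-HF hearts (difference -1.43 ± 0.22, edgeR adjusted p = 0.000426). In both genes the TAC-HF values were the lowest and did not overlap any other group. The shams of Kcnh2 stood below all Sedentary hearts, so the controls themselves differed there. The other 8 called channel genes were Kcnj3 (-1.37), Kcnj5, Kcnj2, Kcnd3, Kcnip2, Kcnk3, Abcc9 and Kcnq1 (-0.65); the pacemaker channel gene Hcn2 was among those not called. With library totals 0 channel genes were higher and 5 lower, with 20 of 22 below the median of all genes.

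Calcium handling genes were mixed, with 1 higher and 5 lower of 17 tested, 35.3% called against 11.1% of all genes tested. Ryr2, the calcium release channel of the sarcoplasmic reticulum, stood at 1725, 1831, 1941 and 2074 CPM in Sedentary, 1733, 1987, 1864 and 1659 in Running, 2162, 2203, 2113 and 2149.6 in Sham-HF and 1140.1, 1355, 928 and 1302 in TAC-HF hearts, a difference of -0.80 (edgeR adjusted p = 0.00141). Hrc, a calcium-binding protein of the same store, had a difference of -0.84 and Cacna1c, the L-type calcium channel, of -0.81. All 4 TAC-HF libraries lay below the other 12 for Ryr2, and its shams stood above all Sedentary hearts. The controls differed for the whole list as well: the 19 listed calcium genes summed to 10339.5 to 11013 CPM in Sham-HF and 7857 to 9573 in Sedentary. The sum was 7893 to 10675 CPM in Running and 7590.5 to 7870 in TAC-HF. With library totals Ryr2 (-0.40, edgeR adjusted p = 0.200) and Hrc (-0.43, edgeR adjusted p = 0.135) were not called. Atp2a2, the calcium pump SERCA2, read 3673, 4489.6, 4323 and 4706 CPM in Sedentary, 3943, 5330.3, 4272 and 3626 in Running, 5119, 5384, 5452 and 4863 in Sham-HF and 3754, 3678, 3693 and 3639 in TAC-HF hearts. Its TAC-HF values lay below every sham but within the range of the exercise cohort, and its difference of -0.49 (edgeR adjusted p = 0.0364) was no longer called with library totals (-0.10, adjusted p = 0.774) and in 10 of 16 fits that left out 1 library (adjusted p up to 0.0726): those without Sedentary replicate 1, 2 or 3, Running replicate 2 or 3, Sham-HF replicate 2 or 3, or TAC-HF replicate 1, 3 or 4. With library totals 5 calcium genes were higher and 0 lower, so the direction of this group depends on the scaling.

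Adra1a, the alpha-1A adrenergic receptor of cardiomyocytes, had effects of opposite sign in the cohorts. It stood at 14.2, 15.9, 14.8 and 13.3 CPM in Sedentary, 19.8, 18.8, 19.3 and 16.5 in Running, 16.7, 23.4, 16.4 and 22.5 in Sham-HF and 9.07, 8.70, 8.48 and 7.46 in TAC-HF libraries. Every Running value was above every Sedentary value, and every TAC-HF value was below every sham. The shams also stood above all Sedentary hearts, and the Running values lay within the sham range, so the controls themselves differed. The TAC effect was -1.23 and the running effect 0.36 (unadjusted p = 0.00521, not called), with a difference of -1.59 (edgeR adjusted p = 4.12e-06). Among 28 renin-angiotensin, endothelin and adrenergic genes, 2 were higher, Ace (1.224) and Edn3 (2.55), and 4 lower: Adra1a, Corin (-0.83), Adrb1 (-0.80) and Adcy6 (-0.78). The share called was 21.4%, against 11.1% of all genes tested. Adrb1 was not called without Sedentary replicate 1 or 2, Running replicate 3 or 4, Sham-HF replicate 3 or 4, or TAC-HF replicate 1 or 3. Corin is the protease that activates atrial natriuretic peptide and Adrb1 the main beta-adrenergic receptor of the heart.

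Genes of the extracellular matrix had the largest share of called members among the lists. Of 43 tested, 40 were higher and 0 lower, 93% called against 11.1% of all genes tested. The median difference was 1.67, and the median TAC effect of 1.403 stood beside a median running effect of -0.16. With 1 library left out in turn, 35 to 40 were called higher. The summed level of the 44 listed genes was 2633 to 3983 CPM in TAC-HF, 1285 to 1753 in Sham-HF, 1357 to 1626 in Running and 1486 to 1709 in Sedentary libraries. Col1a1 and Col3a1 encode chains of the fibrillar collagens I and III. Col1a1 read 45.0, 52.0, 48.4 and 52.4 CPM in Sedentary, 29.6, 34.2, 40.7 and 44.2 in Running, 40.6, 35.3, 36.4 and 25.0 in Sham-HF and 83.2, 121, 55.2 and 117 in TAC-HF hearts, with a difference of 1.86 (interval 1.223 to 2.51, edgeR adjusted p = 0.00123). Col3a1 read 106, 114, 101 and 108 CPM in Sedentary, 49.2, 87.9, 91.3 and 97.7 in Running, 106, 111, 87.4 and 74.5 in Sham-HF and 242, 304, 182 and 296 in TAC-HF hearts, with a difference of 1.83. For both collagens the 4 Running values lay below the 4 Sedentary values while the 4 TAC-HF values lay above the 4 shams. Their running effects (-0.41 and -0.39) had unadjusted p of 0.0717 and 0.0592, and the Col1a1 shams stood below all Sedentary hearts.

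The same pattern held for the elastic fibre genes Fbn1, fibrillin-1, and Loxl1, a lysyl oxidase that crosslinks elastin. Fbn1 stood at 83.2, 98.3, 84.9 and 105 CPM in Sedentary, 48.2, 72.3, 65.0 and 79.0 in Running, 83.7, 88.8, 78.8 and 80.3 in Sham-HF and 226, 233, 136 and 282 in TAC-HF hearts (running effect -0.49, unadjusted p = 0.0129; difference 1.89, edgeR adjusted p = 0.000129). Loxl1 stood at 13.6, 14.4, 16.6 and 14.0 CPM in Sedentary, 9.76, 12.0, 10.3 and 13.0 in Running, 13.1, 10.7, 12.5 and 10.0 in Sham-HF and 27.5, 34.3, 21.8 and 35.0 in TAC-HF hearts (running effect -0.38, unadjusted p = 0.0127; difference 1.73, edgeR adjusted p = 9.99e-06). In neither gene did the Running and Sedentary values overlap, and in both the TAC-HF values were above all others. The Loxl1 shams stood below all Sedentary hearts and overlapped the Running values. The largest matrix differences were those of Ltbp2, a microfibril-associated protein, at 3.90, Col12a1 at 3.52, Col11a1 at 3.13 and Col8a2 at 2.96, and the genes not called were Col5a3, Fbln1 and P4ha1, of which Col5a3 was called without Running replicate 4.

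Genes that mark activated fibroblasts were higher in 15 of 20 tested, with 0 lower, 75% called against 11.1% of all genes tested. Their median difference was 1.92. Postn, periostin, a matricellular protein of activated fibroblasts, stood at 37.5, 27.2, 26.1 and 33.0 CPM in Sedentary, 33.9, 30.0, 41.4 and 29.3 in Running, 28.7, 25.8, 23.3 and 18.5 in Sham-HF and 283, 255, 199.6 and 445 in TAC-HF hearts (difference 3.50, interval 2.84 to 4.16, edgeR adjusted p = 8.59e-06). Cilp read 19.4, 21.9, 17.8 and 16.2 CPM in Sedentary, 16.5, 15.5, 19.5 and 15.9 in Running, 17.7, 12.4, 8.04 and 7.61 in Sham-HF and 170.4, 151, 116 and 178 in TAC-HF hearts (difference 3.90 ± 0.31). Thbs4, thrombospondin 4, read 4.22, 4.44, 4.02 and 4.37 CPM in Sedentary, 3.68, 3.22, 4.11 and 3.66 in Running, 4.72, 2.33, 3.59 and 2.04 in Sham-HF and 46.9, 51.7, 28.7 and 67.5 in TAC-HF hearts (difference 4.15 ± 0.37). In all 3 genes the TAC-HF values were several times the rest and the Running values overlapped the Sedentary ones. Ccn2 and Thbs1, which respond to TGF-beta, and Fap were among the 5 not called; Ccn2 was called without Sham-HF replicate 1. Of 30 TGF-beta pathway genes, 5 were higher, among them the ligand genes Tgfb2 (1.171) and Tgfb3 (1.27) and the receptor genes Tgfbr1 (0.89) and Tgfbr2 (0.47), and 3 lower: Acvr2b (-1.22), Tgfbr3 (-0.65) and Ltbp1 (-0.47). In all, 26.7% of the 30 were called, against 11.1% of all genes tested. Acvr2b was called in 5 of 16 fits that left out 1 library, those without Sedentary replicate 1, Running replicate 2, Sham-HF replicate 1, or TAC-HF replicate 2 or 3.

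Markers of resident fibroblasts and of macrophages moved in the same hearts. The 14 resident fibroblast markers summed to 1242 to 1429 CPM in TAC-HF libraries, 804 to 1064 in Sham-HF, 838 to 993 in Running and 793 to 1003 in Sedentary, and 7 were called higher and 1 lower. The 19 macrophage and monocyte markers summed to 210 to 312 CPM in TAC-HF, 127 to 187 in Sham-HF, 143 to 173 in Running and 145 to 169 in Sedentary, and 9 were called higher and 0 lower. Both sums were highest in TAC-HF with no overlap, and the Running and Sedentary ranges overlapped. Of the fibroblast markers 57.1% and of the macrophage markers 47.4% were called, against 11.1% of all genes tested. None of these markers was at 0 in a whole group. The ventricular cardiomyocyte markers summed to 18890 to 20968 CPM in TAC-HF and to 21993 to 27943 in the other groups, with 3 of 12 called lower (25%). With library totals 0 of these 12 were called lower and 1 higher. Blood endothelium markers had 0 of 16 called in either direction by edgeR or DESeq2 and 0 with an unadjusted p under 0.05 (median difference 0.01). In whole hearts, more or fewer cells of a type and more or less RNA per cell cannot be told apart, and the part of these markers in the matrix differences was not tested. Without Sham-HF replicate 4, TAC-HF replicate 3 or TAC-HF replicate 4, 5 macrophage markers were called instead of 9.

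Among the macrophage markers, Cx3cr1, the fractalkine receptor, had the largest difference. It was sparse, at 1.47, 2.67, 2.92 and 2.04 CPM in Sedentary, 0.398, 1.123, 0.647 and 0.902 in Running, 0.749, 0.914, 1.39 and 1.36 in Sham-HF and 3.45, 1.88, 1.98 and 1.76 in TAC-HF libraries. Running values lay below all Sedentary values and TAC-HF values above all shams, but the shams were also below the Sedentary hearts, which TAC-HF overlapped. The running effect was -1.52 (unadjusted p = 8.40e-05, adjusted p = 0.368), the TAC effect 1.04 and the difference 2.56 (edgeR adjusted p = 0.000641). The gene of its ligand, Cx3cl1, also did not overlap in either cohort (difference 1.222). Adgre1, the macrophage antigen F4/80, read 5.80, 6.97, 5.67 and 7.51 CPM in Sedentary, 5.13, 5.88, 5.83 and 5.31 in Running, 5.86, 5.61, 5.93 and 4.65 in Sham-HF and 12.8, 9.66, 15.9 and 10.4 in TAC-HF hearts. Here only the TAC cohort separated, and the difference was 1.36 (edgeR adjusted p = 0.000227).

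Fuel oxidation genes were lower after TAC, relative to shams, than after running, relative to Sedentary. Of 37 genes of fatty acid uptake and oxidation 15 were lower and 0 higher, 40.5% called against 11.1% of all genes tested. Their median TAC effect was -0.55, their median running effect -0.02 and their median difference -0.51. Slc27a1, a fatty acid transport protein, stood at 31.8, 37.8, 38.8 and 28.9 CPM in Sedentary, 27.3, 32.5, 42.4 and 28.1 in Running, 32.1, 44.8, 38.8 and 46.8 in Sham-HF and 17.5, 17.3, 13.9 and 15.0 in TAC-HF hearts (difference -1.28, edgeR adjusted p = 0.000484). All TAC-HF values lay below all others. Others called lower were the thioesterase gene Acot1 (-1.45), the electron transfer flavoprotein gene Etfa (-0.96), Acaa2 (-0.91), Acadl (-0.74), lipoprotein lipase, Lpl (-0.66), and the lipase gene Pnpla2 (-0.67). The thioesterase genes Acot1 and Acot2 are close copies whose reads can be shared. The controls differed for this group: the 37 genes summed to 7711 to 8507 CPM in Sham-HF, above every other library, and to 5918 to 6377 in TAC-HF, 5875 to 6756 in Sedentary and 5676 to 7341 in Running. TAC-HF hearts were thus below their own shams and level with the exercise cohort in this sum.

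Downstream, 9 of 23 tricarboxylic acid cycle genes were lower and 0 higher (39.1% called against 11.1% of all genes tested, median difference -0.27). Sdha, the catalytic subunit of succinate dehydrogenase, read 277, 309, 323 and 318 CPM in Sedentary, 294, 350.3, 315 and 277 in Running, 384, 423, 406 and 379.6 in Sham-HF and 261, 249.7, 251 and 229.7 in TAC-HF hearts. Its shams stood above the Sedentary hearts, and its TAC-HF values were all below its shams, with a difference of -0.70 (edgeR adjusted p = 0.00113) that was not called with library totals (-0.30, adjusted p = 0.325). The sum of the 23 genes was likewise highest in the shams, 5211 to 5633 CPM, against 4032 to 4545 in TAC-HF and 3976 to 5077 in the exercise cohort. Of 22 ketone and branched-chain amino acid genes, 10 were lower, led by the phosphatase gene Ppm1k (-1.07) and Mccc1 (-0.90), and 1 was higher, the ketone enzyme gene Bdh1 (1.09), which was not called without TAC-HF replicate 3. The share called in this list was 50%.

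The size of these metabolic calls depended on the scaling. With library totals, 3 fatty acid genes, 0 tricarboxylic acid cycle genes and 1 ketone or branched-chain gene were called lower. The medians were then -0.11, 0.13 and 0.01 against 0.39 for all genes, so the latter pair turned sign while 35 of 37, 21 of 23 and 18 of 22 genes stayed below the median of all genes.

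Nuclear genes of the respiratory chain were mostly not called: 6 of 72 were lower and 0 higher, 8.33% called in all against 11.1% of all genes tested. The count was 3 without Sedentary replicate 1 or 4, Running replicate 2 or 3, Sham-HF replicate 2, 3 or 4, or TAC-HF replicate 1 or 4. The mitochondrially encoded genes, which the organelle transcribes itself, differed more: 13 of 15 were lower and 0 higher, 86.7% called. Their median TAC effect was -0.53 and their median running effect 0.18, with the running effect above 0 in 15 of 15. In 5 of the 15 the running effect had an unadjusted p under 0.05 by edgeR. The 15 genes summed to 588122 to 978662 CPM in Running and 592067 to 809982 in Sedentary libraries, which overlapped. Their sum was 607252 to 754953 CPM in Sham-HF and 428874 to 507468 in TAC-HF, below all others. mt-Nd2 encodes a complex I subunit. It read 3715, 3395, 3452 and 3367 CPM in Sedentary, 4285, 4117, 4101 and 4912 in Running, 3999, 4875, 4529 and 5181 in Sham-HF and 2857, 3152, 3111 and 2710.1 in TAC-HF libraries, a difference of -0.97 (edgeR adjusted p = 7.52e-05). mt-Nd4, of the same complex, read 6963, 6419.9, 6589 and 6951 CPM in Sedentary, 7851, 7581, 7543 and 7532 in Running, 6879.8, 7669.6, 7047 and 8630.5 in Sham-HF and 4308, 5199, 4314 and 4154 in TAC-HF libraries, a difference of -0.93. In both genes Running values lay above Sedentary values and TAC-HF values below shams, with no overlap in either cohort. The mt-Nd2 shams also stood above all Sedentary hearts, and its Running values lay within the sham range. For mt-Nd4 the shams and Sedentary hearts overlapped. With library totals the median difference was -0.27, and 4 of 15 were called lower. The nuclear genome holds copies of mitochondrial genes, and the reads of such copies can be shared.

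Of 22 regulators of mitochondrial genes none was called for the difference by edgeR, 8 had an unadjusted p under 0.05 and 4 were called by DESeq2, while 10 were called lower for TAC. Ppargc1a encodes PGC-1alpha, the coactivator that drives mitochondrial gene expression. It stood at 118, 49.5, 45.8 and 79.8 CPM in Sedentary, 106, 50.4, 47.9 and 73.4 in Running, 154, 141, 141 and 120.0 in Sham-HF and 49.1, 74.2, 38.3 and 44.7 in TAC-HF hearts. All shams were above all TAC-HF hearts and above both exercise groups, which spread over more than a 2-fold range and overlapped TAC-HF. The difference was -1.35 (interval -2.35 to -0.35, edgeR adjusted p = 0.0832). It was called without Sedentary replicate 1 (-1.68, adjusted p = 0.0252), without TAC-HF replicate 2 (-1.59, adjusted p = 0.0407), with DESeq2 (-1.36, adjusted p = 0.0484), without the robust option (adjusted p = 0.0331) and with all 24 libraries (adjusted p = 0.0272).

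Sugar metabolism was split, with 3 of 32 glycolysis and glycogen genes higher and 7 lower, 31.2% called against 11.1% of all genes tested. Pfkfb1, a bifunctional enzyme that sets the level of an activator of glycolysis, had the most negative difference among named genes chosen for size. It read 6.80, 3.62, 4.90 and 5.36 CPM in Sedentary, 8.81, 6.93, 11.9 and 4.61 in Running, 3.17, 6.28, 4.88 and 9.14 in Sham-HF and 1.197, 1.03, 1.07 and 1.119 in TAC-HF hearts, and all 4 TAC-HF values were far below the rest. The difference was -3.03 (interval -4.03 to -2.02, edgeR adjusted p = 0.000964), beside -1.66 for Phkg1, a subunit of phosphorylase kinase. In the other direction Ugp2, which makes the sugar donor for glycogen, had a difference of 1.00 and Pfkp, the platelet form of phosphofructokinase, of 1.28.

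Dio2, the deiodinase that makes active thyroid hormone, stood at 2.84, 3.40, 2.53 and 3.20 CPM in Sedentary, 1.69, 2.17, 2.29 and 2.50 in Running, 2.25, 0.956, 1.196 and 1.76 in Sham-HF and 18.3, 15.2, 12.0 and 24.5 in TAC-HF hearts. Running values were below all Sedentary values and TAC-HF values far above all shams, and the difference of 3.97 (interval 3.25 to 4.70, edgeR adjusted p = 2.43e-06) followed those of Acta1, Gdf15, Nppa and Thbs4 among named genes. The shams stood below all Sedentary hearts. Thra, the thyroid hormone receptor alpha, read 24.3, 30.4, 29.9 and 24.2 CPM in Sedentary, 19.0, 23.2, 20.0 and 22.1 in Running, 23.8, 28.8, 26.8 and 27.2 in Sham-HF and 19.2, 20.2, 15.9 and 16.6 in TAC-HF hearts. It was lower than its controls in both cohorts without overlap, with a running effect of -0.37, a TAC effect of -0.57 and a difference of -0.20 (interval -0.51 to 0.11) that was not called.

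Of 26 genes of exercise growth signalling, 1 was higher and 5 lower, 23.1% called against 11.1% of all genes tested, and 6 had a running effect with an unadjusted p under 0.05 (5.47% of all genes did). Igf1, insulin-like growth factor 1, stood at 10.9, 10.6, 10.2 and 8.85 CPM in Sedentary, 14.2, 9.70, 11.9 and 10.1 in Running, 7.76, 8.02, 8.80 and 7.15 in Sham-HF and 15.2, 16.0, 14.0 and 16.8 in TAC-HF hearts. It was higher in TAC-HF than in its shams (effect 0.97), the Running values overlapped the Sedentary ones (effect 0.17), and the difference was 0.80 (edgeR adjusted p = 0.00358). The Igf1 shams stood below all Sedentary hearts, and the TAC-HF values overlapped the highest Running library. Erbb4, the neuregulin receptor of cardiomyocytes, read 9.44, 8.37, 7.43 and 7.57 CPM in Sedentary, 10.3, 11.5, 10.6 and 8.82 in Running, 10.7, 13.1, 13.7 and 10.6 in Sham-HF and 8.43, 7.74, 6.90 and 6.51 in TAC-HF hearts. Its shams stood above all Sedentary hearts, its TAC-HF values lay below all shams, and its running value was above 0 (0.32, unadjusted p = 0.0149), for a difference of -1.03 (edgeR adjusted p = 0.000573). Also lower were the transcription factor gene Tbx5 (-1.42), Il15 (-1.11), Vegfb (-0.55) and Akt2 (-0.37). The count of 5 was 3 without Sham-HF replicate 4 or TAC-HF replicate 1, 3 or 4, and these fits did not call Vegfb or Akt2. Akt2 was called in 5 of 16 fits that left out 1 library, those without Sedentary replicate 4, Running replicate 1 or 3, Sham-HF replicate 1 or TAC-HF replicate 2.

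Cebpb and Cited4, which are known as a repressor and an effector of exercise growth in the mouse heart, were not called for the difference. Cebpb read 8.00, 4.62, 3.14 and 9.67 CPM in Sedentary, 12.0, 4.90, 6.28 and 7.01 in Running, 7.93, 11.9, 10.5 and 6.47 in Sham-HF and 15.7, 14.0, 14.9 and 19.0 in TAC-HF hearts (difference 0.55, interval -0.45 to 1.55, edgeR adjusted p = 0.492). Cited4 read 1.99, 4.07, 7.59 and 3.38 CPM in Sedentary, 1.49, 3.97, 2.44 and 3.81 in Running, 5.02, 1.99, 3.68 and 3.07 in Sham-HF and 3.04, 1.62, 1.98 and 1.76 in TAC-HF hearts (difference -0.23, interval -1.48 to 1.02, edgeR adjusted p = 0.844). The TAC-HF values of Cebpb were above all others, while those of Cited4 overlapped every group. Both genes varied over more than a 2-fold range within each exercise group, and the wide intervals do not show equal effects.

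Of 21 genes listed as brakes on insulin signalling or growth, 3 were higher and 2 lower, 23.8% called against 11.1% of all genes tested. The list includes Foxo transcription factors, muscle ubiquitin ligases and IGF-binding proteins. Foxo3, a transcription factor that Akt shuts out of the nucleus, stood at 57.5, 41.6, 40.3 and 50.4 CPM in Sedentary, 70.0, 59.2, 59.0 and 60.4 in Running, 52.5, 49.8, 65.9 and 62.7 in Sham-HF and 48.8, 44.1, 42.4 and 48.7 in TAC-HF hearts. Running lay above Sedentary and TAC-HF below its shams without overlap (difference -0.71, edgeR adjusted p = 0.00686). With library totals its difference was -0.32 (edgeR adjusted p = 0.257). Igfbp7, an IGF-binding protein of the matrix, read 43.0, 41.1, 37.1 and 45.8 CPM in Sedentary, 40.5, 39.6, 41.2 and 43.9 in Running, 38.4, 32.3, 33.5 and 31.8 in Sham-HF and 109, 97.6, 98.4 and 123 in TAC-HF hearts. The 4 TAC-HF values were more than 2 times every other value, and the difference of 1.67 carried a small error (0.13, edgeR adjusted p = 2.50e-07). Pik3ip1, an inhibitor of PI3-kinase, was counted with the exercise growth genes above. It had its larger effect with running: 10.9, 11.6, 8.97 and 9.44 CPM in Sedentary, 22.2, 19.2, 18.5 and 15.4 in Running, 6.48, 12.1, 12.4 and 16.1 in Sham-HF and 18.0, 10.4, 16.0 and 12.4 in TAC-HF. All Running values were above all Sedentary values (effect 0.87, unadjusted p = 0.00135), the shams varied widely, and the difference of -0.60 was not called (edgeR adjusted p = 0.242), except without Sham-HF replicate 1 (-0.81, adjusted p = 0.0287).

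Dchs2, named in the title of the series, is a large cadherin of the dachsous family, whose members bind Fat cadherins and feed into Hippo signalling, a brake on organ growth. It was low, at 0.791, 2.22, 1.49 and 0.699 CPM in Sedentary, 0.796, 0.973, 0.914 and 1.00 in Running, 1.102, 1.45, 1.29 and 0.908 in Sham-HF and 3.68, 4.13, 2.18 and 3.53 in TAC-HF libraries. The TAC-HF values lay above all shams and overlapped only the highest Sedentary library, and the Running values lay within the Sedentary range. The difference was 1.97 (interval 1.098 to 2.83, edgeR adjusted p = 0.00444), made of a TAC effect of 1.49 and a running value of -0.47 (unadjusted p = 0.144). Dchs1 read 22.1, 20.8, 20.1 and 24.6 CPM in Sedentary, 16.2, 22.1, 18.9 and 22.1 in Running, 16.0, 15.0, 14.9 and 16.8 in Sham-HF and 24.7, 30.6, 19.0 and 27.1 in TAC-HF hearts. Its TAC-HF values were above the shams but overlapped the exercise cohort, with a difference of 0.84 (edgeR adjusted p = 0.00402). The Dchs1 shams stood below all Sedentary hearts.

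Of 27 Hippo pathway genes, 7 were higher and 2 lower, 33.3% called against 11.1% of all genes tested. Higher beside the dachsous genes were Fat1 (0.96), the scaffold gene Amot (1.161), the coactivator gene Wwtr1, also called TAZ (0.60), Mob1a (0.41) and Vgll3. Mob1a was called in 2 of 16 fits that left out 1 library, those without Sham-HF replicate 1 or 3. Lower were the cadherin gene Celsr2 (-1.27) and Amotl2 (-0.56). Vgll3, a cofactor of the TEAD factors, read 2.78, 2.26, 2.59 and 1.86 CPM in Sedentary, 0.398, 1.05, 1.219 and 1.703 in Running, 3.66, 2.20, 3.21 and 1.42 in Sham-HF and 4.01, 4.98, 2.85 and 6.00 in TAC-HF hearts. The Running values were below all Sedentary values and the running effect (-1.13, unadjusted p = 0.00459) was larger than the TAC effect (0.76, not called), for a difference of 1.89 (edgeR adjusted p = 0.0132).

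**Figure D3:**
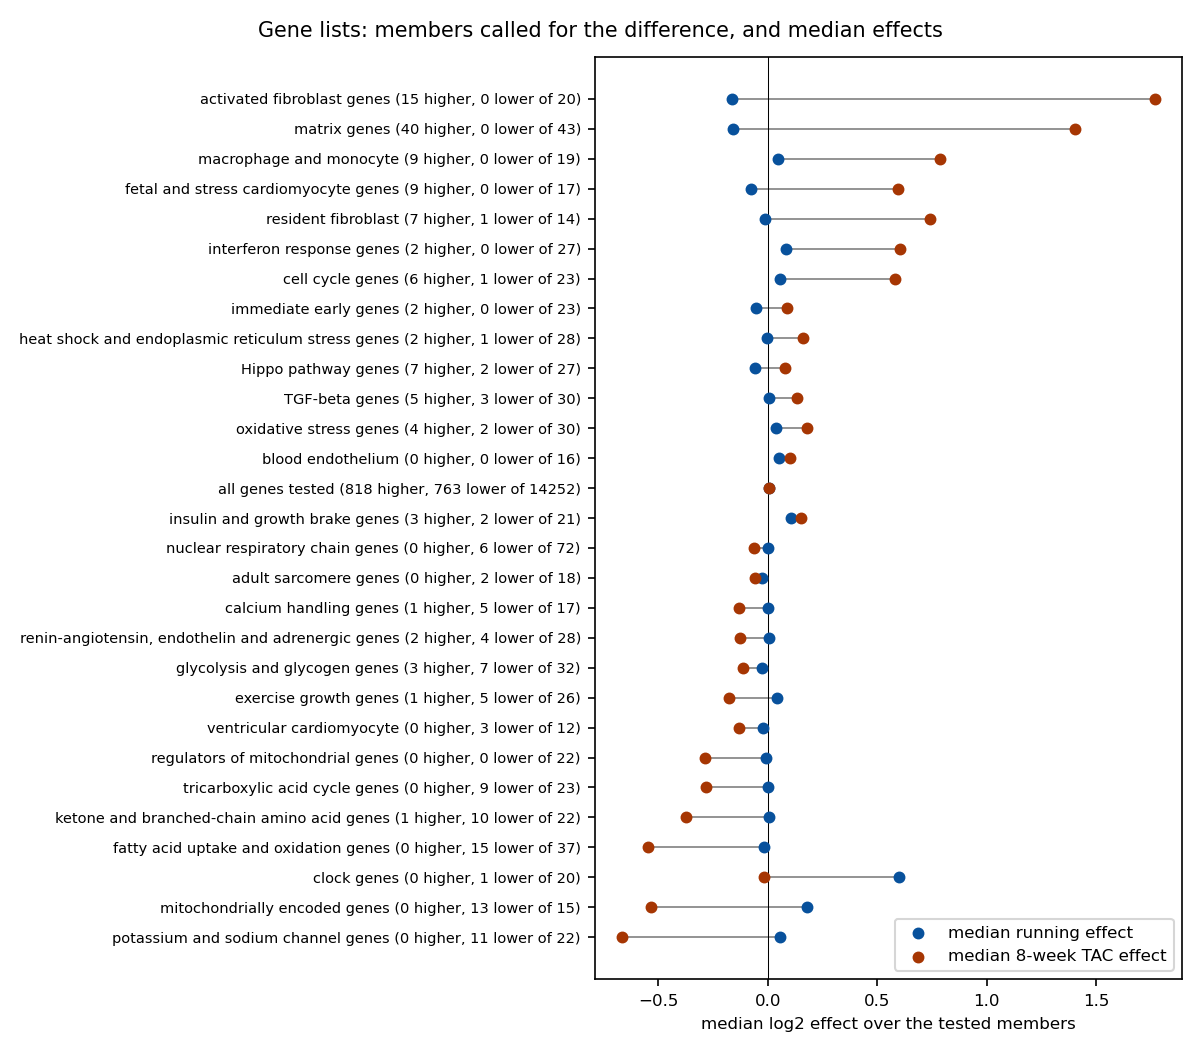
Median running effect (blue) and median 8-week TAC effect (brown) over the tested members of each gene list (horizontal, log2), TMM scaling, with the members called for the difference in brackets; the lists overlap in part. Matrix and activated fibroblast genes stand at 1.403 and 1.77 for TAC, and clock genes at 0.60 for running.

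With library totals in place of TMM the counts of smaller lists moved as well. The lower counts became 1 for exercise growth genes, 0 for the insulin and growth brake genes, 1 for the Hippo genes, 1 for the adrenergic and renin-angiotensin genes, 0 for the TGF-beta genes and 2 for the glycolysis genes. The higher counts became 13 for the Hippo genes, 11 for the TGF-beta genes, 7 for the glycolysis genes and 5 each for the growth brake and adrenergic genes, as the median of all genes moved up. The matrix, activated fibroblast and stress genes had 42, 18 and 12 higher and 0 lower under that scaling.

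A called difference without a called TAC effect was rare, 71 of 1581 genes, 40 higher and 31 lower, and among the 1581 the running effect was the larger in size in 62. Prps2, an enzyme of nucleotide synthesis, had the smallest running p of both kinds. It stood at 5.80, 5.66, 5.39 and 4.95 CPM in Sedentary, 6.97, 7.97, 8.42 and 7.41 in Running, 5.99, 6.03, 6.17 and 6.24 in Sham-HF and 5.25, 4.98, 5.63 and 5.77 in TAC-HF libraries. Running was above Sedentary and TAC-HF below its shams, each without overlap, by 0.49 (unadjusted p = 6.97e-05, adjusted p = 0.368) and -0.17, and the difference was -0.67 (edgeR adjusted p = 0.00444). The shams stood above all Sedentary hearts, and the TAC-HF values lay within the Sedentary range. The difference of Prps2 was not called with library totals (-0.28, adjusted p = 0.328). Ckap4, a membrane protein of the endoplasmic reticulum and a marker of activated fibroblasts, read 9.44, 12.0, 10.1 and 12.6 CPM in Sedentary, 7.02, 6.63, 5.48 and 8.82 in Running, 13.8, 8.48, 9.95 and 9.20 in Sham-HF and 12.6, 16.7, 10.5 and 18.0 in TAC-HF hearts. Here the Running values were all below the Sedentary ones while TAC-HF and Sham-HF overlapped (running effect -0.66, TAC effect 0.48, difference 1.138, edgeR adjusted p = 0.00977). Others of this kind were Arl4c (1.116), Rgs12 (0.70) and Mtch1 (0.47), higher after TAC relative to running, and Cdh19 (-0.82), lower; Cdh19 was not called without Sedentary replicate 2 or Sham-HF replicate 3.

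The Running values lay all above the Sedentary values for 216 genes (1.52%) and all below for 207 (1.45%), and the TAC-HF values all above the shams for 2096 (14.7%) and all below for 2009 (14.1%). Of the 70 ways to arrange 4 values against 4, a single way puts all values of a group above the rest, and a single way below. The running shares are close to that chance share, so chance was not excluded for any gene separated with running. In 45 genes, 0.316% of those tested, no values overlapped in either cohort and the directions were opposite. The difference of effects is large in such genes by the way they were picked, so its test adds nothing for them. They held 6 matrix genes (Col1a1, Col3a1, Col6a3, Col15a1, Fbn1 and Loxl1), 5 mitochondrially encoded genes (mt-Nd2, mt-Nd4, mt-Nd4l, mt-Co1 and mt-Cytb), Cdh11, a cadherin of fibroblasts (1.28), Itga11, a collagen receptor subunit (1.597), Tlr2, a receptor of innate immunity (1.62), and Trdn, a protein of the calcium release unit (-0.52). None of the 45 had a called running effect by edgeR, so the direction with running rests on 4 values against 4 in each.

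**Figure D4:**
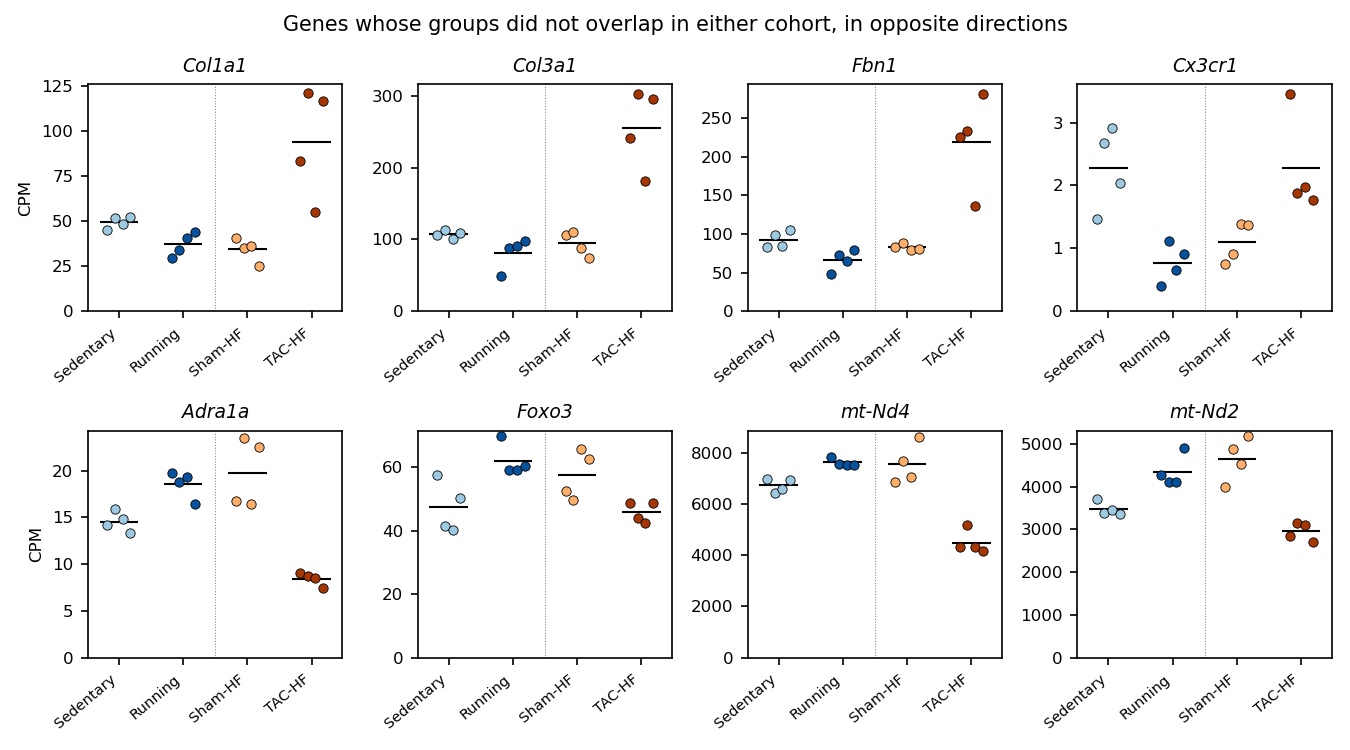
CPM per library (vertical, from 0) for 8 genes in the 4 groups; points are libraries, bars are means of 4, and a dotted line parts the cohorts. Running sits below Sedentary and TAC-HF above Sham-HF for Col1a1, Col3a1, Fbn1 and Cx3cr1, and the reverse for Adra1a, Foxo3, mt-Nd4 and mt-Nd2.

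The reverse case, no overlap in either cohort and the same direction, was met by 84 genes (0.589%), 45 higher and 39 lower than their controls in both, and 7 of them had a called difference. Obsl1, a giant adaptor protein of the sarcomere, stood at 38.9, 38.7, 47.0 and 43.5 CPM in Sedentary, 30.3, 32.3, 30.9 and 36.2 in Running, 37.2, 37.4, 37.8 and 41.0 in Sham-HF and 28.6, 30.9, 23.6 and 31.6 in TAC-HF hearts. Its running effect was -0.37 (unadjusted p = 0.000930), its TAC effect -0.42 (adjusted p = 0.00327) and its difference -0.04 (interval -0.33 to 0.24). Dnmt3a, a DNA methyltransferase, read 41.9, 29.5, 36.8 and 45.7 CPM in Sedentary, 22.2, 28.5, 29.5 and 27.5 in Running, 24.8, 28.1, 23.3 and 29.4 in Sham-HF and 17.6, 21.7, 14.5 and 18.6 in TAC-HF hearts, with effects of -0.51 and -0.54 and a difference of -0.03 (interval -0.43 to 0.36). Both were lower than controls after either intervention. Ephx1, an epoxide hydrolase, read 13.0, 11.7, 11.2 and 11.0 CPM in Sedentary, 17.5, 14.9, 19.5 and 13.2 in Running, 9.70, 9.43, 8.61 and 9.82 in Sham-HF and 15.9, 12.0, 16.8 and 14.0 in TAC-HF hearts, higher than controls in both, with effects of 0.47 and 0.64 and a difference of 0.18 (interval -0.18 to 0.53). For these 3 genes, picked for effects of the same sign, the interval of the difference includes 0 and reaches at most 0.53 in size. The shams of Dnmt3a and Ephx1 stood below all Sedentary hearts.

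Clock genes were the list with the largest median running effect. Of 20 tested, 16 had a running effect with an unadjusted p under 0.05 (5.47% of all genes did), the median running effect was 0.60 and the median TAC effect -0.02, and none was called for TAC by edgeR (1 had an unadjusted p under 0.05, and 1 was called by DESeq2). For the difference 1 was called lower, Usp2 (-0.94, edgeR adjusted p = 0.0488), which was lost in 11 of 16 fits that left out 1 library (all but those without Sedentary replicate 1 or 4, Running replicate 4, or Sham-HF replicate 1 or 3), and 0 higher. Arntl encodes the activating clock factor BMAL1. It stood at 3.81, 8.06, 10.5 and 4.43 CPM in Sedentary, 0.846, 0.786, 0.343 and 2.66 in Running, 11.2, 7.06, 11.6 and 4.03 in Sham-HF and 4.05, 9.88, 3.13 and 6.72 in TAC-HF hearts. All Running values were below all Sedentary values (effect -2.58, unadjusted p = 0.00119), and the difference of 2.07 (interval 0.33 to 3.80) was not called (edgeR adjusted p = 0.123), except without Running replicate 4 (2.83, adjusted p = 0.0467) and with library totals (2.51, adjusted p = 0.0430).

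Dbp and Per3, targets of the clock that peak at another phase than Arntl, had running values of the other sign. Dbp read 21.8, 10.1, 3.85 and 15.9 CPM in Sedentary, 24.8, 49.7, 45.9 and 35.8 in Running, 3.26, 8.27, 2.63 and 21.2 in Sham-HF and 14.5, 3.24, 19.4 and 9.43 in TAC-HF hearts (running effect 1.58, difference -1.16, interval -3.25 to 0.94). Per3 read 20.5, 7.61, 8.86 and 17.0 CPM in Sedentary, 35.0, 36.2, 44.6 and 24.2 in Running, 4.10, 8.69, 5.50 and 18.6 in Sham-HF and 11.1, 5.12, 15.9 and 8.04 in TAC-HF hearts (running effect 1.37, difference -1.23, interval -2.72 to 0.26). Every Running value of both was above every Sedentary value, and within the Sedentary, Sham-HF and TAC-HF groups the libraries ranged over more than a 2-fold span. Tef, a factor of the same family as Dbp, read 54.3, 28.9, 28.0 and 47.0 CPM in Sedentary, 74.3, 83.8, 96.7 and 60.4 in Running, 25.7, 36.4, 27.6 and 56.1 in Sham-HF and 44.9, 25.8, 52.3 and 37.5 in TAC-HF hearts (difference -0.85, edgeR adjusted p = 0.222). Hlf, also of that family, read 9.53, 4.75, 5.06 and 8.04 CPM in Sedentary, 13.5, 16.9, 19.1 and 7.31 in Running, 3.70, 5.90, 5.79 and 8.06 in Sham-HF and 4.10, 3.32, 6.02 and 3.32 in TAC-HF hearts. For Hlf, Running replicate 4 lay within the Sedentary range, and the difference of -1.52 (edgeR adjusted p = 0.0520) was called without that library (-1.74, adjusted p = 0.0135), without Sedentary replicate 1, Sham-HF replicate 1 or TAC-HF replicate 3 (adjusted p 0.0313 to 0.0374), with DESeq2 (adjusted p = 0.0189), without the robust option (0.0232) and with all 24 libraries (0.0284). The hour at which hearts were taken is not in the labels used here, and its part in these values was not tested.

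**Figure D5:**
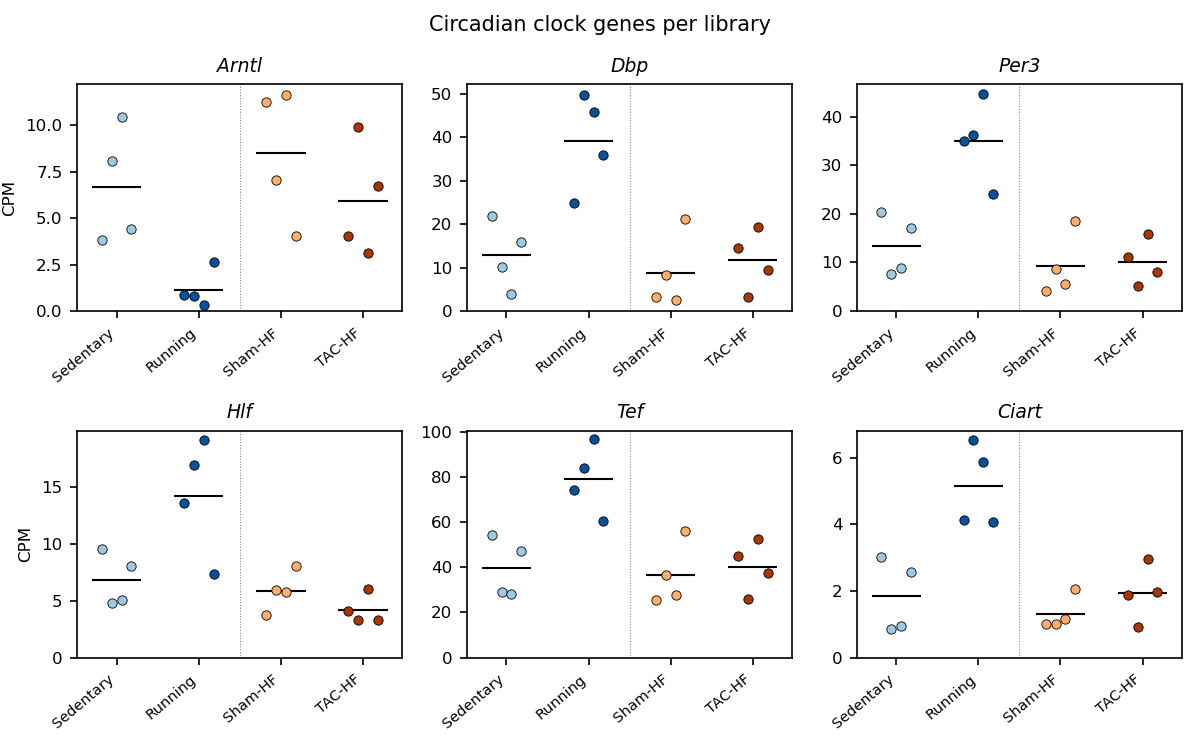
CPM per library (vertical, from 0) for 6 clock genes in the 4 groups; points are libraries, bars are means of 4, and a dotted line parts the cohorts. Running libraries read 0.343 to 2.66 CPM for Arntl, below the Sedentary ones, and 24.2 to 44.6 CPM for Per3, above them.

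Of 23 cell cycle genes 6 were higher and 1 lower (30.4% called against 11.1% of all genes tested), and 11 were called higher and 1 lower for TAC. The higher count was 3 with all 24 libraries, 10 with library totals, and 1 to 5 with 1 library left out, lowest without Sham-HF replicate 2 or TAC-HF replicate 4. The controls differed for this group: the 27 listed genes summed to 144 to 150 CPM in Sham-HF, below every other library. The sum was 161 to 189 CPM in TAC-HF, 159 to 182 in Sedentary and 167 to 185 in Running. TAC-HF hearts were thus above their own shams and level with the exercise cohort in this sum. The lower gene, Cenpf, which encodes a kinetochore protein, read 23.3, 17.2, 16.3 and 20.0 CPM in Sedentary, 16.6, 26.7, 20.2 and 15.1 in Running, 14.6, 18.9, 20.3 and 24.6 in Sham-HF and 4.24, 5.60, 3.53 and 3.46 in TAC-HF hearts, with no overlap between TAC-HF and the rest (difference -2.25, edgeR adjusted p = 0.000114). Among the higher ones Top2a, the DNA topoisomerase of dividing cells, had a difference of 1.56 (edgeR adjusted p = 0.00625). By gene class, of 59 snoRNA genes, which guide the modification of other RNAs, 13 were higher and 0 lower, and of 24 spliceosomal and other snRNA genes 7 were higher and 0 lower. The shares called were 22% and 29.2%, against 11.1% of all genes tested. Among long noncoding classes, 24 of 218 lincRNA genes and 41 of 325 genes of the class TEC, unspliced transcribed regions of unsettled kind, were lower, with 5 and 1 higher. Their median differences were -0.41 and -0.62, and the shares called, 13.3% and 12.9%, were near the 11.1% of all genes tested. Of 287 antisense genes 23 were lower and 6 higher, 10.1% called. With library totals 10 antisense genes were lower and 11 higher. With library totals 10 lincRNA genes were lower and 15 higher (median -0.026), and 19 TEC genes were lower and 4 higher (median -0.22), so the balance of the lincRNA calls turned with the scaling. Of the lincRNA genes 76.6% and of the TEC genes 87.1% then lay below the median of all genes. The snoRNA and snRNA genes had 41 and 13 higher and 0 lower.

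Other genes of large difference were Aqp8, a water channel gene, at 0.645, 1.58, 0.770 and 0.990 CPM in Sedentary, 0.747, 0.524, 0.533 and 0.802 in Running, 0.573, 0.748, 0.861 and 0.795 in Sham-HF and 6.40, 5.68, 5.91 and 5.73 in TAC-HF libraries. The TAC-HF libraries were close to each other and stood above all others (difference 3.60, edgeR adjusted p = 2.43e-06). Nox4, an oxidase that makes hydrogen peroxide, had a difference of 2.94 and Ccn5, a matricellular protein, of 2.89. On the lower side were the water channel gene Aqp4 (-2.41), the galectin gene Lgals4 (-2.29), Fign (-2.13), the lymphatic guidance gene Ccbe1 (-2.03), Ppl, periplakin (-1.98), Gal3st2c (-2.16) and Gdap10 (-1.98), a gene with a running value of 0.95 (unadjusted p = 0.00784). Clcn1, the muscle chloride channel (-2.21), was close to the threshold (edgeR adjusted p = 0.0433) and not called in 11 of 16 fits without 1 library, those other than without Sedentary replicate 3, Running replicate 1 or 4, or Sham-HF replicate 1 or 3.

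Of 27 interferon response genes, 16 were called higher for TAC and 2 for the difference, Psmb8 (0.86) and Rsad2 (0.94). The share called for the difference was 7.41%, below the 11.1% of all genes tested. The count of 2 was 20 with library totals and 4 with DESeq2 or with all 24 libraries; it was 0 without Sedentary replicate 2, Running replicate 3, Sham-HF replicate 1 or 2, or TAC-HF replicate 1 or 3, 1 without Sedentary replicate 3 or 4, Running replicate 1 or 2, or Sham-HF replicate 4, 4 without Sham-HF replicate 3, and 8 without Running replicate 4. Their median TAC effect was 0.60 and their median running effect 0.09. Of 30 oxidative stress genes 10 were called higher and 4 lower for TAC. For the difference 20% were called, against 11.1% of all genes tested. Higher were Nox4, Gpx1 (0.89), Sod3 (0.71) and Gpx4 (0.53), and lower were Gstm1, a glutathione transferase (-0.69), and Sod1, a superoxide dismutase (-0.41). Gpx4 was called in 4 of 16 fits that left out 1 library, those without Sedentary replicate 1, Running replicate 2, Sham-HF replicate 1 or TAC-HF replicate 2. Sod1 was called in 7, those without Sedentary replicate 3, Running replicate 1 or 2, Sham-HF replicate 1 or 3, or TAC-HF replicate 2 or 3. With library totals 10 of the 30 were higher and 0 lower. Heat shock and endoplasmic reticulum stress genes had 4 of 28 called higher for TAC, where 14.0% of all genes tested were. For the difference 10.7% of the 28 were called, near the 11.1% of all genes tested. Of these, 2 were higher (1 without Sedentary replicate 2) and 1 lower: Herpud1, an endoplasmic reticulum stress gene (-1.08). Its TAC and running values pointed in opposite directions (-0.54 and 0.54), and its call was lost without Sham-HF replicate 4. With library totals 6 of the 28 were higher and 0 lower.

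Among other genes named above as lower, Abcc9, Acaa2, Acadl, Acvr2b, Adcy6, Adrb1, Amotl2, Cacna1c, Cdh19, Clcn1, Corin, Etfa, Gstm1, Herpud1, Il15, Kcnd3, Kcnip2, Kcnj5, Kcnk3, Kcnq1, Lpl, Ltbp1, Mccc1, Pnpla2, Tbx5, Tgfbr3, Tnnt2, Trdn, Usp2, Vegfb and mt-Co1 also remained below 0 but were not called with library totals. Akt2 and Sod1 were not called there either, at 0.036 and 0.0070. Acvr2b, Akt2, Bdh1, Clcn1, Herpud1, Kcnj5, Mob1a, Rsad2, Sod1, Tbx5 and Usp2 were not called when no low-count filter was used.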

How the data were processed

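Whole-heart RNA was extracted with Trizol, depleted of ribosomal RNA with RiboZero and made into libraries with an NEB kit, per the labels' protocols. The deposited values are estimated counts per gene, written as whole numbers; the submitters' processing notes name FastQC, Salmon and the build mm9. The versions, the annotation and the strand setting were not given in the sources used here. Of 43432 identifiers, 42462 were named from the given GRCm38 gene table, and 1 row naming no gene, with 0 counts, was left out.

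Groups came from the labels. From the estimated counts the authors deposited, genes were filtered with edgeR's filterByExpr, scaled by TMM over 16 libraries, and fitted with the robust quasi-likelihood model of edgeR 4.0.16 (limma 3.58.1, R 4.3.3), with 12 residual degrees of freedom. Each contrast was adjusted by Benjamini-Hochberg over 14252 genes and called at an adjusted p under 0.05. Standard errors are the size of the log2 value divided by the root of F, and intervals are 95%. CPM came from the same scaling. On simulated counts of 14056 genes the test recovered 20% of genes changed 1.5-fold, 80% at 2-fold and 100% at 4-fold and 8-fold (50 each), and called 8 unchanged genes. The changed genes had a mean of at least 2 CPM and were changed in TAC-HF only, with all other group means equal. Recovery of genes under 2 CPM, or with as many changed genes as in the data, was not simulated.

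The comparison and gene lists were chosen with earlier results of these data known. Named genes were the 12 most positive and the 12 most negative called differences with a mean of at least 2 CPM and a settled symbol, up to 4 genes of smallest p per list, and a short set of standard genes. Rules for genes with a called running effect took 0. Some items named by these rules are not reported here. Other named members, the genes with no overlap in both cohorts, those led by running, and the genes shown by library were picked after their values were seen. Alternatives were RLE or no normalization factors, mitochondrial genes left out, no filter, no robust option, all 24 libraries, a replicate block, the number range of the exercise libraries as a term, DESeq2 1.42.0, and each library left out.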

Additional observations from a re-analysis of the deposited data

Results flagged for a closer look

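In 54 genes shown by library, 216 groups of 4 were examined for a library far from the other 3, and 10 held one; chance flags about 1 in 20 groups, so about this many were due by chance. Ankrd1 read 238.9 CPM in Sham-HF replicate 1 against 157 to 166 in the other shams. Nppb read 25.8 CPM in Sedentary replicate 1 against 47.7 to 51.7. Hrc read 204 CPM in Sedentary replicate 1 against 222 to 224, and 224 CPM in Running replicate 2 against 201 to 203. Kcnd2 read 14.7 CPM in Sham-HF replicate 1 against 17.5 to 17.9. mt-Nd4 read 7851 CPM in Running replicate 1 against 7532 to 7581, and 5199 CPM in TAC-HF replicate 2 against 4154 to 4314. Cx3cr1 read 3.45 CPM in TAC-HF replicate 1 against 1.76 to 1.98. Foxo3 read 69.98 CPM in Running replicate 1 against 59.0 to 60.4. Obsl1 read 41.0 CPM in Sham-HF replicate 4 against 37.2 to 37.8.

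In 11 of the genes shown by library, every TAC-HF value lay on one side of every sham and every Running value on the opposite side of every Sedentary value, and the difference of effects itself passed edgeR's test. These genes were picked after their values were seen, so that test restates the choice and adds no support. The difference was higher for Dio2 (3.97), Cx3cr1 (2.56), Fbn1 (1.89), Col1a1 (1.86), Col3a1 (1.83) and Loxl1 (1.73). It was lower for Adra1a (-1.59), mt-Nd2 (-0.97), mt-Nd4 (-0.93), Foxo3 (-0.71) and Prps2 (-0.67).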

How the results depend on the processing

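The count of 1581 called differences moved past 1.5 times only with library totals in place of TMM (3198, of which 988 were among the 1581). It was 1579 with RLE factors, 1558 without mitochondrially encoded genes, 1297 with no filter, 1567 with no robust option, 1658 with all 24 libraries, 1461 with the exercise library numbers as a term and 1694 with DESeq2, and 1077 to 1780 with 1 library left out. The TAC effect had 2927 to 4066 calls with 1 library left out, 5634 with library totals, 3887 with DESeq2 and 4032 from its own 8 libraries. The running effect had 0 to 4 calls with 1 library left out, 14 with DESeq2 and 0 with library totals or from its own 8 libraries. The causes of these moves were not tested.

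Same-numbered libraries did not deviate together in every pair (r 0.39, 0.23, 0.09 and 0.05 in the exercise cohort and -0.19, 0.10, 0.07 and -0.15 in the TAC cohort), and not every library correlated best with its own number. With the replicate block the difference was called for 2038 genes, TAC for 4377 and running for 1; the fatty acid genes called lower went from 15 to 24, the lower adult sarcomere genes from 2 to 4, the lower ventricular cardiomyocyte markers from 3 to 5 and the higher interferon genes from 2 to 5. Under the block Ppargc1a was called (-1.42, adjusted p = 7.67e-05), and Tbx5, Usp2 and Vgll3 (1.93, adjusted p = 0.0872) were not.

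Of 173 genes of the naming rules or the text with a called difference, 143 were called in the same direction in all 16 fits without 1 library, 106 under all 9 other settings and 99 under both. Of these 173, Akt2 (0.036, edgeR adjusted p = 0.909) and Sod1 (0.0070, adjusted p = 0.982) turned sign, both with library totals; 19 uncalled genes changed sign under at least 1 setting, and none of these was called there. With 4 libraries a group, the difference has a larger error than either effect, which limits the detection of changes under 2-fold.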
